A study of Mus musculus with 6 samples.

Results

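The fibroblast growth factors (FGFs) and their receptors were examined in whole mouse retinas 2 days after optic nerve crush (ONC) or sham surgery. The set held 10 genes, chosen by symbol: the secreted ligands Fgf1, Fgf2 and Fgf9, the intracellular factors Fgf12, Fgf13 and Fgf14, and the receptors Fgfr1, Fgfr2, Fgfr3 and Fgfr4. All 10 were found among the 35485 genes of the deposited tables. FGF levels in the retina fell mainly for the intracellular factor Fgf12 and the ligand Fgf1. Fgfr2 fell from a low level to a lower one and Fgf13 fell by a small amount. Fgfr1 was higher in every ONC pool than in any sham pool, but this difference did not pass the test.

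Secreted FGFs bind receptor tyrosine kinases on the cell surface together with heparan sulphate, and the receptors pass the signal through adaptor proteins to the MAP kinase cascade. Fgf1 and Fgf2 lack a classical signal peptide and are known as survival factors for retinal neurons. Fgf12, Fgf13 and Fgf14 belong to a branch called FGF homologous factors (FHFs), which stay inside the cell and bind the tails of voltage-gated sodium channels in neurons.

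The samples came from wild type C57BL/6 mice, 12 weeks old and, per the study's methods, male. In the ONC group the optic nerve was crushed with forceps for 10 seconds at 2 mm behind the eye, and in the sham group it was exposed and left uncrushed. Each group had 3 samples, and each sample was RNA combined in fixed amounts from 6 retinas of 6 mice, so spread between single mice cannot be seen and p-values measure the spread between pools. The crush injures axons of retinal ganglion cells (RGCs), which are few among the cells of the whole retina.

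The sham samples held 17343945 to 18349331 exon reads and the ONC samples 20019818 to 20358008, and exons took 70.9 to 76.6% of the reads on genes in sham and 78.5 to 80.4% in ONC. Sham replicate 3 held the most intron reads (7131984, against 4866867 to 5606616 in the other 5 samples). The gene Esp38 alone held 801603, 708414 and 1193154 of the reads on genes in sham replicates 1 to 3. In ONC it held 677883, 391987 and 463320, and how many of these lay outside exons is not given here. The retina label was checked by its markers: the summed level of 12 rod and cone markers was 24422 to 26023 in sham and 23588 to 26237 in ONC. Levels below are exon reads per kilobase of exon and per 1000000 exon reads, scaled by the TMM factors of edgeR and called normalised levels. Unlike the deposited RPKM values, this scale has no intron reads in its divisor.

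Of the 10 members, 9 exceeded the study's expression minimum, a group mean RPKM of 0.3 in sham or in ONC, and were tested on exon reads with edgeR's quasi-likelihood test, and Fgfr3 was below this minimum. Fgfr2 passed it only through the sham samples (mean RPKM 0.389 in sham and 0.104 in ONC) and Fgfr4 only through the ONC samples (0.234 and 0.331). At a false discovery rate (FDR) below 0.1, Fgf1, Fgf12, Fgf13 and Fgfr2 were lower in ONC, which is 4 of 9 members, beside 3.72% of the 13670 genes tested. By edgeR 0 members were higher at that FDR, beside 2.38% of all genes, and DESeq2 and limma called 0 higher as well. At an unadjusted p under 0.05, 1 member was higher, Fgfr1, and 5 were lower. Of all 13670 genes, 2286 had such a p, in either direction. The study's thresholds for differentially expressed genes (DEGs) ask for that FDR and a fold change above 1.5. At these Fgf12 and Fgfr2 remained, beside 1.66% of all genes in either direction. Without any minimum on RPKM, 17655 genes were tested and Fgf1, Fgf12, Fgf13 and Fgfr2 passed an FDR of 0.1, with none of the other 6 members passing. With a mean RPKM above 0.3 in both groups, a filter chosen after seeing the data, Fgfr2 and Fgfr4 were not tested. Fgf1, Fgf12 and Fgf13 then passed the FDR threshold and Fgf12 alone was a DEG, and the shares of all genes under that filter are not given here.

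The 3 ONC levels lay wholly below the 3 sham levels for Fgf1, Fgf12, Fgf13 and Fgfr2, and wholly above them for Fgfr1. Such separation occurred in 5 of the 9 members tested, beside 21.8% of all genes tested, and in 4 of 8 without Fgfr2, which entered the test only through the group where it was high. The median log2 fold change of the tested members was -0.29, and that of all genes was 0.01.

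**Figure D1:**
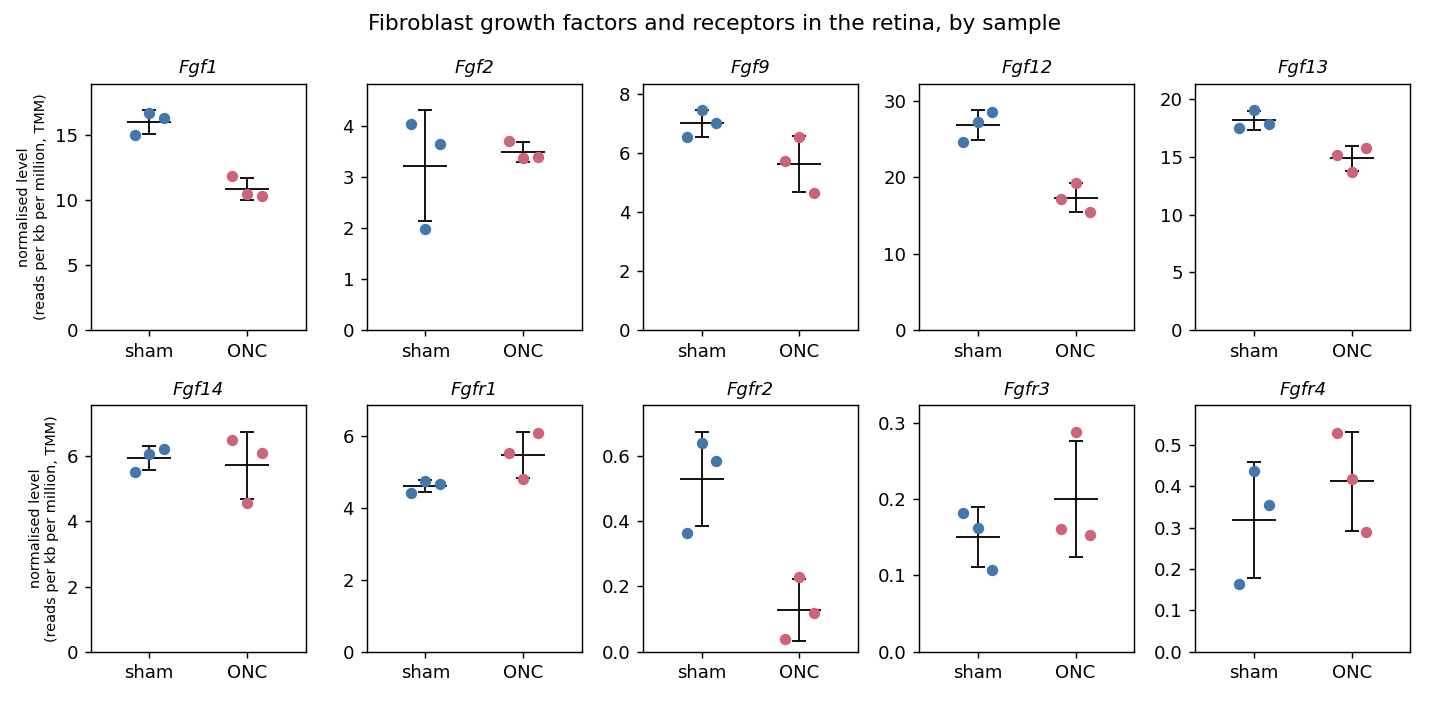
Normalised levels (vertical axes, exon reads per kilobase per 1000000 exon reads with TMM scaling, from 0) of the 10 genes in the 3 sham (blue) and 3 ONC (red) samples; bars give the mean and SD of each group. The ONC points lie below all sham points for Fgf1, Fgf12, Fgf13 and Fgfr2, and above them for Fgfr1.

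Fgf12 and Fgf13 were the 2 most abundant members in both groups. Fgf12 lies on chromosome 16 from 28160098 to 28753202 and is counted over 8 exons with 3287 exon bases. Its normalised level was 24.6, 27.2 and 28.5 in sham replicates 1 to 3 and 17.2, 19.3 and 15.5 in ONC replicates 1 to 3. The highest ONC pool thus stayed under the lowest sham pool. The mean fell from 26.8 ± 1.99 (SD, n = 3) to 17.3 ± 1.89 (SD, n = 3). The log2 fold change of -0.63, with a 95% interval of -0.81 to -0.45 and a standard error of 0.08, had an adjusted p of 7.68e-05 by edgeR. Fgf12 was 1.55-fold lower, just past the fold threshold, so that without sham replicate 3 (log2 fold change -0.58) or ONC replicate 3 (-0.56) Fgf12 stayed past the FDR threshold and was no longer a DEG.

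Fgf13, on chromosome X from 59062150 to 59134436, is counted over 5 exons with 2494 exon bases. It had levels of 17.5, 19.1 and 17.9 in sham and of 15.1, 13.7 and 15.8 in ONC. The groups did not overlap, but the gap between them was narrow. By edgeR the log2 fold change was -0.29 with a standard error of 0.09, and the adjusted p was 0.0805. The call was the least stable of the 4: the adjusted p was 0.115 to 0.304 when any one sample other than ONC replicate 1 was left out. It was 0.314 when all reads on genes served as library size.

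Fgf14, on chromosome 14 from 123978291 to 124677127, had levels of 5.54, 6.07 and 6.24 in sham and of 6.51, 4.56 and 6.12 in ONC. The ONC pools lay on both sides of the sham pools. Its log2 fold change was -0.05 with a 95% interval of -0.34 to 0.23 (adjusted p = 0.881, edgeR), so a fall of the size of the Fgf12 value lies outside that interval. The remaining FHF, Fgf11, is no member of the set and had a log2 fold change of -0.03 (adjusted p = 0.962, edgeR), with levels of 17.4 ± 3.22 in sham and 17.1 ± 5.81 in ONC (SD, n = 3).

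Within each sample, the log2 ratio of Fgf12 to Fgf14 was 2.15, 2.17 and 2.19 in sham and 1.40, 2.08 and 1.34 in ONC. The sham ratios were nearly equal and all ONC ratios were lower, that of ONC replicate 2 by the least. The difference of means was -0.57 with p = 0.1 in an exact two-sided permutation test, the smallest p that 3 samples against 3 allow (adjusted p = 0.2 over 12 pairs of members with the same role). The ratio of Fgf12 to Fgf13 changed by -0.34 (exact p = 0.2, adjusted p = 0.3) and its groups overlapped.

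The 250 bases upstream of the RefSeq start nearest the start in the deposited tables are shown for members that fell. No window of Fgf1, which also fell, was examined. The members shown have a start in the deposited tables within 41 bases of a RefSeq start. They are Fgf12 (chr16:28753244-28753493), Fgf13 (chrX:59134437-59134686) and Fgfr2 (chr7:130266809-130267058), all on the minus strand of GRCm38.p6 and written 5′ to 3′ on the gene's strand. Capitals mark the GC box GGGCGG on either strand.
Fgf12: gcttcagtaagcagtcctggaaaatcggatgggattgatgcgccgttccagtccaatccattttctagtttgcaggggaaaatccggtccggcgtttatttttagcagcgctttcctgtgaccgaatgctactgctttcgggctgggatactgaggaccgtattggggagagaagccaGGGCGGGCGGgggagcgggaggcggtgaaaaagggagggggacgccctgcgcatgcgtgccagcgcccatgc
Fgf13: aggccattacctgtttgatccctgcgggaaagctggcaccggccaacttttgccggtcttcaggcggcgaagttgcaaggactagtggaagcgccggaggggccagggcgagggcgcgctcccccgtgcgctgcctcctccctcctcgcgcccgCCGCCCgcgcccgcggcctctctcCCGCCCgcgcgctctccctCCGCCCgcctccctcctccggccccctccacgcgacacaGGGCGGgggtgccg
Fgfr2: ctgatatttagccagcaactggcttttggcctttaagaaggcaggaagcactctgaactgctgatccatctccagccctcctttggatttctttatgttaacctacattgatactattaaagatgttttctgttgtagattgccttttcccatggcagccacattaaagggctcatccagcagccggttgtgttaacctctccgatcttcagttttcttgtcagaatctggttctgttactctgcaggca

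The Fgf12 window held 2 overlapping GC boxes and 58.4% G or C, the Fgf13 window 4 GC boxes and 74.4%, and the Fgfr2 window none and 44.0%. Among the 32851 promoter windows of the same length in the RefSeq table, 32.7% held a GC box. None of the 3 windows held an AP-1 site (TGANTCA, in 6.75% of windows), a CRE (TGACGTCA, in 1.55%), a TATA box (TATAAA, in 12.4%) or a POU domain core (ATTAAT, in 4.39%), each searched on both strands. Fgf12 and Fgf13 have further RefSeq starts, farther from the counted start, and which start these retinas use was not tested. The windows of these further starts held 63.6 to 69.2% G or C for Fgf12 and 40.4 to 74.8% for Fgf13. They held 0 to 2 GC boxes for Fgf12 and 0 to 3 for Fgf13. Of these windows, 1 of Fgf12 (from 28446076) held 1 AP-1 site, and 1 of Fgf13 (from 59166089) held 1 AP-1 site and 2 POU domain cores. For Fgf13 the RefSeq span runs 451136 bases beyond the model of the deposited tables, so that first exons annotated there lay outside the counted model.

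Among the secreted ligands, Fgf1 was the most abundant. Fgf1, the acidic FGF, binds every FGF receptor. Its level was 15.002, 16.8 and 16.4 in sham and 11.9, 10.5 and 10.4 in ONC. All ONC pools were lower than all sham pools, by a gap larger than the spread within either group. The mean went from 16.0 ± 0.918 to 10.9 ± 0.841 (SD, n = 3), and the log2 fold change was -0.56 (standard error 0.08, 95% interval -0.73 to -0.38, adjusted p = 0.000298 by edgeR). The fall of 1.47-fold missed the 1.5-fold threshold. Without sham replicate 1 (log2 fold change -0.61) or ONC replicate 1 (-0.62), Fgf1 passed both thresholds. On spliced reads alone Fgf1 also passed both (log2 fold change -0.83, adjusted p = 0.0444), while Fgf12 met the FDR limit but fell short of 1.5-fold (-0.55, adjusted p = 0.0122), so the 2 DEGs were then Fgf1 and Fgfr2.

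Fgf9, on chromosome 14 from 58072686 to 58112720, encodes a secreted ligand that neurons and glia make. It had levels of 6.52, 7.43 and 7.01 in sham and of 5.70, 6.54 and 4.64 in ONC. ONC replicate 2 lay just above sham replicate 1, so the groups overlapped. The log2 fold change was -0.31 (95% interval -0.57 to -0.06, not adjusted for the number of genes) and the adjusted p was 0.194 by edgeR. Without ONC replicate 2 it was -0.44 with an adjusted p of 0.0958. The log2 ratio of Fgf1 to Fgf9 was 1.17 to 1.22 in sham and 0.677 to 1.16 in ONC, a difference of -0.24 (exact permutation p = 0.1, adjusted p = 0.2).

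Fgf2, the basic FGF, had 49, 25 and 43 exon reads in sham and 51, 48 and 49 in ONC. The 3 ONC pools were alike, and sham replicate 2 was the lowest of all 6. The levels were 4.03, 1.98 and 3.64 in sham and 3.70, 3.37 and 3.39 in ONC, and the log2 fold change was 0.12 with a 95% interval of -0.62 to 0.86 (adjusted p = 0.903, edgeR). At this depth a change of Fgf2 of up to 1.5-fold either way was not detectable, and without sham replicate 2 its sign turned (-0.14).

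Fgf2 is counted over a short model. In the deposited tables it runs from 37348653 to 37404830 on chromosome 3 with only 695 exon bases and ends 153 bases before Nudt6, an antisense neighbour that encodes a nudix hydrolase. In RefSeq Fgf2 runs 5276 bases further and shares 5125 bases with Nudt6. Strand was not stated for the counting, so reads of Fgf2 and Nudt6 in this stretch cannot be told apart. The map of both gene spans shows this stretch.

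**Figure D2:**
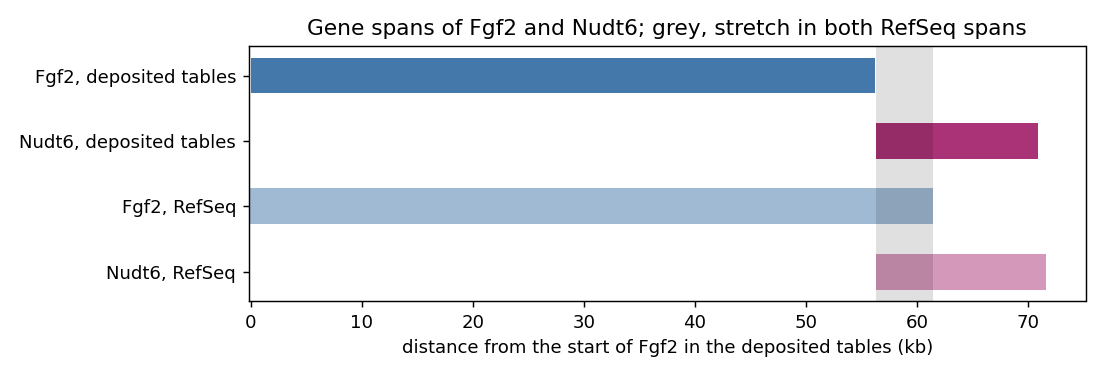
Spans of Fgf2 and Nudt6 in the deposited tables (upper bars) and in RefSeq for GRCm38.p6 (lower bars), by distance in kb from the start of Fgf2 in the deposited tables. The grey stretch of 5125 bases lies in both RefSeq spans, while the spans of the deposited tables do not touch.

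Nudt6 had 123, 160 and 153 exon reads in sham and 240, 202 and 229 in ONC. All ONC pools held more reads and higher levels (9.19 to 11.3, against 6.56 to 8.40 in sham), but the log2 fold change of 0.41 did not pass the test (adjusted p = 0.210, edgeR). Its intron reads numbered 714 to 825 in sham and 905 to 1109 in ONC (log2 fold change 0.47, adjusted p = 0.111). Most reads on the Fgf2 gene lay outside its counted exons, 70.3 to 84.5% of them, and its share of uniquely mapped exon reads ran from 67.3 to 92.0%. Counted over the whole gene, Fgf2 had a log2 fold change of -0.46 (adjusted p = 0.306).

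Several genes overlap the members in the deposited tables. Gm12541 overlaps the start of Fgf2 and held 205 to 390 reads with no exon annotated. Gm5820 overlaps Fgf1 and had at most 2 exon reads in a sample. Its reads outside exons numbered 29, 13 and 16 in sham and 16, 17 and 34 in ONC. Gm20328 and Mir690 within Fgf12, Mir504 within Fgf13, and 1700024B18Rik and Olfr277-ps1 within Fgf14 have no exon bases in the tables either, so exon reads could not be counted to them. Their whole-gene counts were 0 in every sample, apart from 1 read on Olfr277-ps1 in ONC replicate 1, and how reads shared with the host gene were assigned is not given in the sources used here.

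Summed, the receptors were less abundant than the secreted ligands in every sample. Fgfr1, the main receptor of the set in these retinas, lies on chromosome 8 from 25518772 to 25575714 and is counted over 19 exons. Its levels were 4.41, 4.75 and 4.66 in sham and 5.54, 4.81 and 6.08 in ONC. Every ONC pool exceeded every sham pool, ONC replicate 2 by little. The log2 fold change was 0.25 (95% interval 0.01 to 0.49, not adjusted) and the adjusted p was 0.268 by edgeR, so the difference did not pass the test. With all reads on genes as library size it was 0.37 with an adjusted p of 0.0681.

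Fgfr2, on chromosome 7 from 130162451 to 130266808, had 34, 62 and 53 exon reads in sham and 4, 25 and 13 in ONC. The lowest sham pool held more reads than the highest ONC pool, although each ONC library was deeper. In normalised levels this was 0.364, 0.637 and 0.583 against 0.0377, 0.228 and 0.117. The log2 fold change was -2.03 (standard error 0.50, 95% interval -3.09 to -0.98, adjusted p = 0.0253 by edgeR), which is 4.10-fold lower. Reads across exon junctions were 19, 18 and 31 in sham and 4, 6 and 6 in ONC. On these spliced reads the log2 fold change was -2.28 (adjusted p = 0.0664). All of its exon reads were unique.

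The size of the Fgfr2 fall is known only within the wide interval given, since it rests on few reads. The adjusted p was 0.139 without sham replicate 2 and 0.117 without sham replicate 3, and Fgfr2 was not called there. Under limma on log2 RPKM the change was -1.31 with a pseudocount of 0.1 (adjusted p = 0.133) and -0.33 with a pseudocount of 1 (adjusted p = 0.112), a scale on which changes of low genes are understated.

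Fgfr3, on chromosome 5 from 33721724 to 33737068, had 14, 13 and 8 exon reads in sham and 14, 26 and 14 in ONC. The groups overlapped. With no minimum on RPKM, edgeR gave a log2 fold change of 0.41 with a standard error of 0.70 and an adjusted p of 0.831. Fgfr4, on chromosome 13 from 55152818 to 55168759, had 9, 25 and 19 reads in sham and 33, 27 and 19 in ONC. These overlapped too, and its log2 fold change was 0.37 with a 95% interval of -0.67 to 1.40 (adjusted p = 0.764, edgeR). A change of 1.5-fold in Fgfr3 or Fgfr4 was not detectable at this depth.

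**Figure D3:**
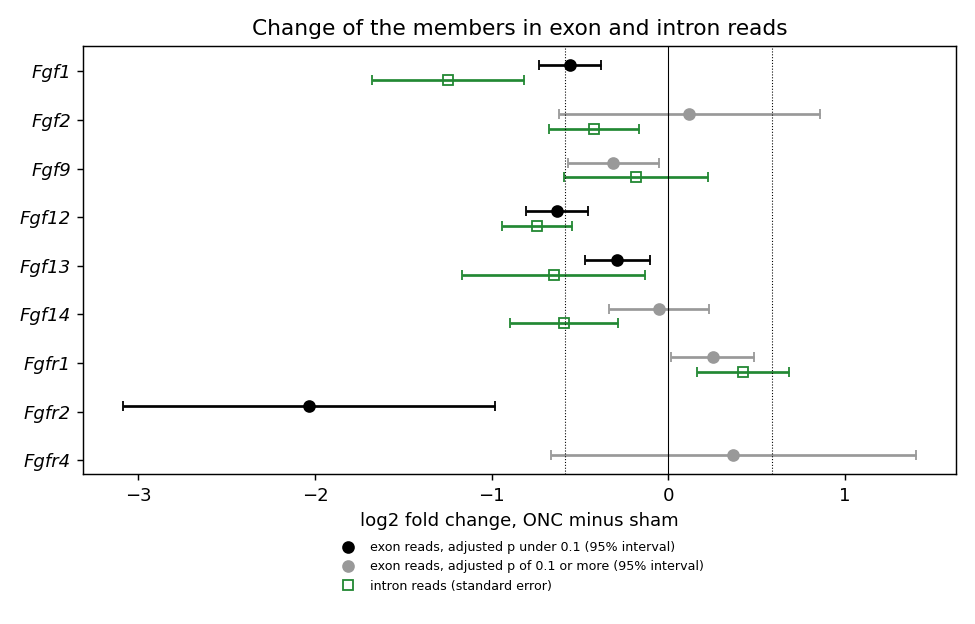
Log2 fold change, ONC minus sham (horizontal axis), of the 9 members tested on exon reads (circles with 95% intervals; black, adjusted p under 0.1; grey, 0.1 or more) and of the 7 tested on intron reads (green squares with standard errors). Dotted lines mark the 1.5-fold threshold; Fgfr2 lies at -2.03 with the widest interval among the calls, and Fgf12 at -0.63.

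The order of the members by level differed between the groups. In sham it was Fgf12 (26.8 ± 1.99), Fgf13 (18.2 ± 0.799), Fgf1 (16.0 ± 0.918), Fgf9 (6.99 ± 0.455), Fgf14 (5.95 ± 0.366), Fgfr1 (4.61 ± 0.177) and Fgf2 (3.22 ± 1.09), each with its 3 values apart from its neighbour's, and then Fgfr2 (0.528 ± 0.145), Fgfr4 (0.319 ± 0.14) and Fgfr3 (0.1505 ± 0.0389), whose neighbouring values overlapped (SD, n = 3). In ONC the values of Fgf12 and Fgf13 overlapped, as did those of Fgf14, Fgf9 and Fgfr1. Fgfr2, followed by Fgfr4 and Fgfr3 in sham, had the lowest mean of the 10 in ONC (0.128 ± 0.0956), overlapping Fgfr3 (0.201 ± 0.076). Levels of Fgf2 and Fgf13 are per kilobase of the short models counted.

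Summed by role, the FHFs of the set (Fgf12, Fgf13 and Fgf14) stood at 47.7, 52.4 and 52.7 in sham and at 38.8, 37.5 and 37.4 in ONC. The mean of this sum was 50.9 in sham and 37.9 in ONC, and that of Fgf12 alone 26.8 and 17.3. Fgf11, an FHF outside the set, is not in this sum. Its levels were 15.1, 16.0 and 21.1 in sham and 23.7, 12.9 and 14.6 in ONC, where the groups overlapped. The secreted ligands summed to 25.6, 26.2 and 27.0 in sham and to 21.3, 20.4 and 18.4 in ONC. Both sums were lower in every ONC pool than in every sham pool. The receptors summed to 5.12, 5.99 and 5.71 in sham and to 6.27, 5.75 and 6.64 in ONC, where the groups overlapped, and Fgfr1 made up most of this sum.

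Fgfr1 was higher and Fgfr2 lower in every ONC pool than in any sham pool. The log2 ratio of Fgfr1 to Fgfr2 was 3.58, 2.89 and 2.99 in sham and 7.03, 4.37 and 5.65 in ONC. The groups did not overlap, and the mean was 2.53 higher in ONC. The log2 ratio of Fgfr2 to Fgfr4 was 1.10, 0.528 and 0.691 in sham and -3.66, -0.874 and -1.30 in ONC, so Fgfr2 was above Fgfr4 in each sham pool and below it in each ONC pool. Each of these reached the smallest exact permutation p of 0.1 (adjusted p = 0.2), as did 6 of the 12 pairs.

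**Figure D4:**
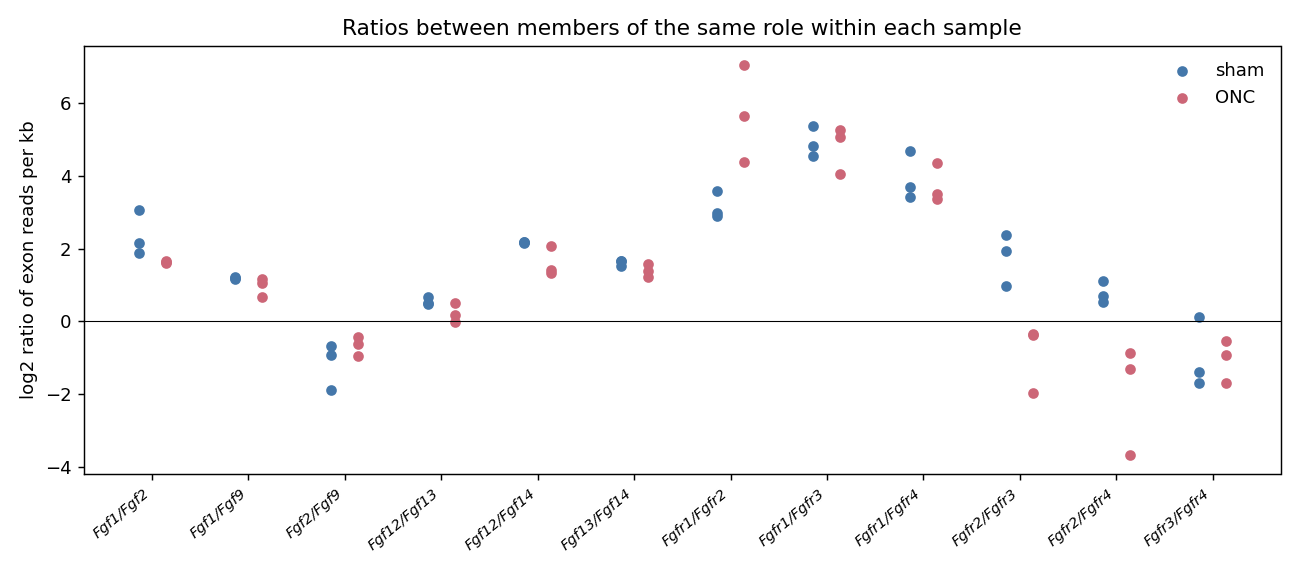
Log2 ratio of exon reads per kilobase (vertical axis) between members of the same role, in each sham (blue) and ONC (red) sample, for 12 pairs. The pairs with Fgfr2 separate the groups furthest, and the ratio of Fgf12 to Fgf14 lies between 2.15 and 2.19 in sham and between 1.34 and 2.08 in ONC.

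Intron reads, a second readout of the same pools, are the reads on a gene outside its exons and can come from RNA not yet spliced. They could be tested for 7 members, those with at least 10 such reads in at least 3 samples. Fgf12 had 501, 507 and 903 intron reads in sham and 346, 318 and 441 in ONC. All ONC pools were lower, although sham replicate 3 stood far above the other samples, as it did in intron reads over all genes. The intron log2 fold change of Fgf12 was -0.74 with a standard error of 0.20 and an adjusted p of 0.0930 by edgeR, and 1 of 7 members passed the FDR threshold, beside 2.63% of the 13520 genes tested. Without sham replicate 3 it was -0.47 with an adjusted p of 0.264, and leaving out any other sample except sham replicate 1 also put it above 0.1.

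Fgf1 had 68, 30 and 71 intron reads in sham and 16, 18 and 37 in ONC. ONC replicate 3 exceeded sham replicate 2 in these counts. For Fgf1 this gave an intron log2 fold change of -1.25 with a standard error of 0.43 and an adjusted p of 0.163 by edgeR. The overlapping gene Gm5820 had 13 to 29 intron reads in sham and 16 to 34 in ONC. How reads shared by Gm5820 and Fgf1 were assigned is not given in the sources used here. The other 5 members tested had intron log2 fold changes from -0.65 for Fgf13 to 0.42 for Fgfr1, with adjusted p values of 0.348 to 0.859. Fgfr1 was the one member of the 7 with a higher intron value in ONC. On exons both Fgfr1 (log2 fold change 0.25) and Fgf2 (0.12) had higher values, neither past the test. The biological coefficient of variation was 23.3% for intron reads and 9.17% for exon reads.

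Outside the set, 16 other FGF ligands were looked at. Only Fgf10, Fgf11, Fgf18 and Fgf22 passed the RPKM minimum, and 0 of the 4 passed an FDR of 0.1 by edgeR, DESeq2 or limma, nor an unadjusted p under 0.05. The median log2 fold change of these 4 was -0.27, close to that of the members (-0.29). Fgf4, Fgf6, Fgf16, Fgf20 and Fgf21 had no exon read in any sample, and a count of 0 allows up to 3 reads over the 6 libraries together, or a normalised level of at most 0.0278 for these genes. Fgf3, Fgf5, Fgf7, Fgf8, Fgf15, Fgf17 and Fgf23 had reads but were below the minimum.

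On the receptor side of the pathway, few genes passed the test, beside 3.72% of all genes lower and 2.38% higher. Of 13 tested coreceptors and binding proteins, and of 15 heparan sulphate enzymes, 0 passed an FDR of 0.1 by edgeR, DESeq2 or limma, with median log2 fold changes of -0.04 and -0.05. At an unadjusted p under 0.05 edgeR gave 4 coreceptors and binding proteins, 2 higher and 2 lower, and 3 enzymes, 1 higher and 2 lower. Of all 13670 genes tested, 2286 had such a p, in either direction. Of 25 adaptors and kinases, Shc3, a neuronal adaptor, was the one that passed, with a log2 fold change of -0.86 (adjusted p = 0.0654) and levels of 4.51 ± 0.488 in sham and 2.49 ± 0.889 in ONC (SD, n = 3). The median of that list was -0.04.

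Among 19 feedback and target genes, Egr1, an immediate early transcription factor, rose from 6.25 ± 0.809 to 12.98 ± 1.14 (SD, n = 3; adjusted p = 7.34e-06, edgeR). Spred1, an inhibitor of Ras signalling, fell from 26.6 ± 2.66 to 21.3 ± 2.71, a log2 fold change of -0.32 (adjusted p = 0.0555). The other 17 did not pass the test. Among these, Spry2 had a log2 fold change of -0.05, Dusp6 of 0.27, Etv5 of 0.01 and Fos of 0.03. Egr1 and Fos answer to many stimuli besides FGFs.

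The partners of the FHFs listed here are mostly genes of the neuronal membrane and axon. Of 15 tested genes for sodium channel subunits, ankyrins and other listed partners, 7 fell and 0 rose by edgeR. Beside this, 3.72% of all genes were lower and 2.38% higher, and DESeq2 gave the same counts for the list. The list had a median log2 fold change of -0.24 beside 0.01 over all genes. At an unadjusted p under 0.05, 11 were lower and 0 higher, beside 2286 of all 13670 genes in either direction. Under limma 3 passed the FDR threshold, and the share of all genes under limma is not given here. Scn4b, an accessory subunit of sodium channels, fell from 2.06 ± 0.282 to 0.223 ± 0.0522 (SD, n = 3), which is -3.20 on the log2 scale (adjusted p = 4.55e-07, edgeR). Scn1a, a pore-forming subunit, fell by 0.79 on the log2 scale (adjusted p = 5.28e-07), Scn2b by 0.61 (9.77e-05) and Scn8a, the channel of mature initial segments, by 0.33 (0.00693). Ank2 fell by 0.25 (0.0449) and Ank3, which anchors the channels, by 0.24 (0.0820). Scn2a1 (-0.18), Scn3a (-0.06) and Scn9a (0.30) did not pass the test.

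**Figure D5:**
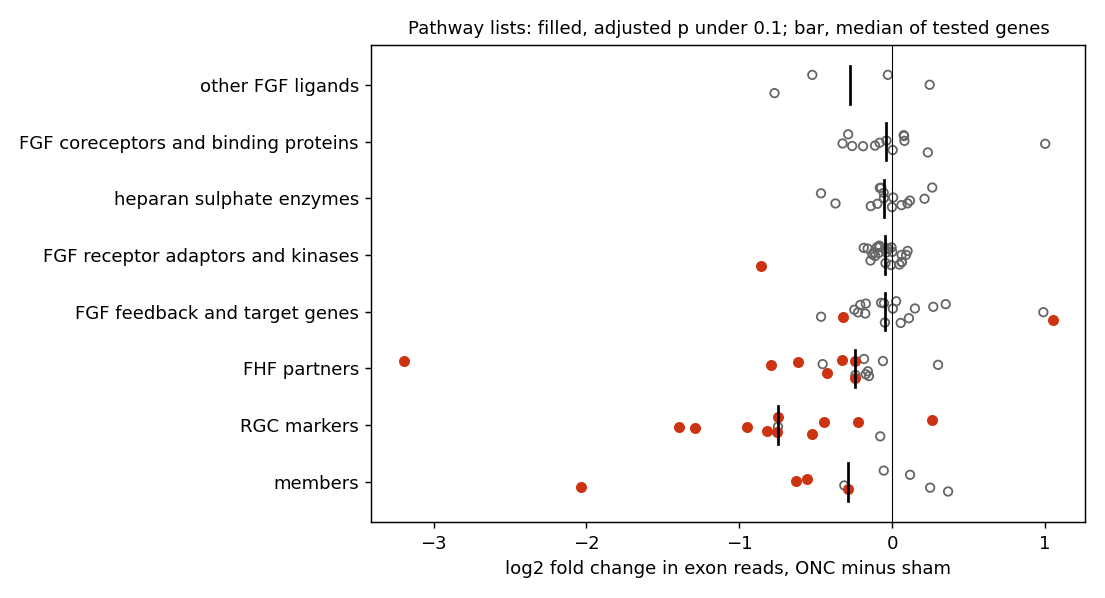
Log2 fold change in exon reads, ONC minus sham (horizontal axis), of each tested gene in 6 lists of the FGF pathway, in the RGC markers and in the members; filled points have an adjusted p under 0.1 and bars give list medians. The receptor-side lists centre near 0, the FHF partners at -0.24 and the members at -0.29. The 4 tested genes among the other FGF ligands centre at -0.27, with 0 past the FDR threshold.

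Markers of RGCs moved with these genes. Of 12 RGC markers, 9 fell and 1 rose (Slc17a6), with a median log2 fold change of -0.75, and their summed level was 635 to 712 in sham and 444 to 473 in ONC. Whether the falls of Fgf1, Fgf12, Fgf13 and the FHF partners lie in RGCs was not tested. From these whole-retina values, fewer cells of a type and less RNA per cell cannot be told apart. The study chose 2 days after surgery as a time before significant RGC loss, citing earlier work, and reports no RGC count of its own. Microglia markers moved the other way, with 4 of 9 tested past the FDR threshold and higher in ONC and a summed level of 24.01 to 27.5 in sham and 37.1 to 40.6 in ONC. Astrocyte and Müller glia markers had a summed level of 1901 to 1940 in sham and 1899 to 2001 in ONC, with 2 of 12 higher at the FDR threshold. Of all genes tested, 3.72% were lower and 2.38% higher at that threshold.

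Tissue next to the retina also carries FGF receptors. Summed over 8 pigment epithelium markers the level was 56.2 to 75.4 in sham and 47.1 to 70.1 in ONC, with 0 past the FDR threshold by edgeR, DESeq2 or limma and 2 lower at an unadjusted p under 0.05. Over 10 vascular markers, of which 9 were tested and 0 had an unadjusted p under 0.05, it was 64.5 to 69.3 and 57.7 to 69.0. Over 8 lens markers, a list chosen after their values were seen, it was 37.3 to 88.0 in sham and 81.7 to 99.9 in ONC, and Cryaa was the one past the FDR threshold, with 5 of 8 higher at an unadjusted p under 0.05 and a list median log2 fold change of 1.14. Beside these counts, 2286 of all 13670 genes had an unadjusted p under 0.05, in either direction. At the FDR threshold 3.72% of all genes were lower and 2.38% higher. Sham replicate 1 stood apart from the other sham pools, with 529 Cryaa reads against 86 and 147, while ONC pools had 615 to 817. The part of such tissue in the values of Fgfr2, Fgfr3 and Fgfr4 was not tested.

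The genes nearest in pattern to the 2 members of smallest p were found by the root mean square difference of centred log2 CPM over the 6 samples, among 11976 genes with a mean RPKM above 1. Nearest to Fgf12 were Alk (0.0729), Vsnl1 (0.0861), Rimkla (0.0872), Emb (0.0891) and Plcb1 (0.0906). Nearest to Fgf1 were Lynx1 (0.0331), Gabrb2 (0.0449), Nefl (0.0465), Wnk2 (0.0517) and Limk1 (0.0523). Nefl, the light neurofilament chain, is also among the RGC markers. All 10 fell in ONC, by 0.49 (Gabrb2) to 0.71 (Plcb1) on the log2 scale, a direction fixed by the way they were chosen.

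The scale on which levels are compared bears on small changes. With all reads on genes as library size, as in RPKM, the median log2 fold change of all genes was 0.13 rather than 0.01, and genes past the FDR threshold were 12.9% lower and the rest higher, against 61.0% lower with TMM. Under that scaling Fgf12 had a log2 fold change of -0.51, Fgf1 of -0.44 and Fgfr2 of -1.90, each still past the FDR threshold, with Fgf12 then less than 1.5-fold lower. Fgf14 changed sign to 0.07, which was below the median of all genes.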

How the data were processed

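For each sample the authors mapped paired reads with CLC Genomics Workbench and deposited, per gene, counts of exon reads, whole-gene reads and spliced reads, total and unique, and RPKM values, which divide exon reads by exon length and by all reads on genes. The authors' RPKM were recomputed from the deposited counts to within 0.0005. The build named is mm9, but 95.4% of 29908 matched genes lie within 10000 bases of their GRCm38.p6 RefSeq position, so positions are taken as GRCm38. Libraries were made with the TruSeq RNA kit, and strand is not given in the sources used here.

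Total exon reads were fitted with edgeR 4.0.16 (TMM, glmQLFit, glmQLFTest) in R 4.3.3 for the genes whose mean RPKM in sham or in ONC exceeded 0.3. The model held the group alone, and p-values were adjusted after Benjamini and Hochberg over every gene fitted. The standard error is the log2 fold change divided by the root of the F statistic. Intron reads are whole-gene minus exon reads, fitted likewise. Ratios within a sample, with 0.5 reads added, were compared by exact two-sided permutation tests. The count fits were checked on simulated data, in which the intron fit recovered fewer changed genes than the exon fit. Members, lists and the rule for named genes (all members, overlapping genes, list genes past the FDR threshold and nearest patterns) were chosen with earlier results of these data known. Unlisted examples (Fgf11, Spry2, Dusp6, Etv5, Fos, Scn2a1, Scn3a, Scn9a, Flrt3, Etv1, Nudt6 and Esp38) were named after their values were seen. Alternatives were DESeq2 1.42.0, limma 3.58.1, other scalings, filters and read classes, and leaving out each sample. The 95% intervals of fold changes include the fitted spread between pools, and the limit at a count of 0 covers counting error only. The values of 1 gene among the FHF partners are not reported here.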

Additional observations from a re-analysis of the deposited data

How the results depend on the processing

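The number of members called as DEGs (2) was 1 with all reads on genes as library size, with a mean RPKM above 1, and with a mean RPKM above 0.3 in both groups (chosen after seeing the data; Fgfr2 was not tested under these filters), and 0 under limma with pseudocounts of 0.1 and of 1. Leaving out 1 sample gave 0 (without sham replicate 3) to 3. The number past the FDR threshold (4) was 0 and 2 under limma and 2 to 4 with 1 sample left out. On intron reads (1) it was 0 with DESeq2 size factors, 2 with the exon scaling, and 0 to 1 with 1 sample left out. Pathway genes past the threshold (10) were 4 and 5 under limma and 6 to 25 with 1 sample left out, the 25 without ONC replicate 1. The cause was not tested.

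Signs turned for Fgf14 on exons (0.0659 with all reads on genes, 0.0530 and 0.0458 under limma, -0.1548 to 0.0813 with 1 sample left out), Fgf2 on exons (-0.46 on whole-gene reads, -0.1385 to 0.3105 with 1 sample left out) and Fgf9 on introns (-0.6198 to 0.3707 with 1 sample left out, positive without sham replicate 3 or ONC replicate 2), none of them past the test. At the FDR threshold alone, Fgf1 and Fgf12 lost their exon calls under 1 of 19 alternatives, limma with a pseudocount of 0.1 (adjusted p = 0.109 and 0.124). Fgfr2 lost it under 4 of 17 and Fgf13 under 12 of 19. Fgf12 was less than 1.5-fold lower under limma (log2 fold change -0.51 and -0.48), with all reads on genes (-0.51) and on spliced reads (-0.55). The same held without sham replicate 3 (-0.58) or ONC replicate 3 (-0.56). Same-numbered samples did not deviate together (correlations -0.05, -0.04 and -0.02). Samples of unlike number were not compared, so whether the numbers pair the samples was not settled. With the replicate block 2 members were called, 3 passed the FDR threshold on exons and 1 on introns, and 9 pathway genes passed.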

Other observations

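Fgfr3 and Fgfr4 had few reads but were spliced in every sample, with 3 to 17 reads across exon junctions for Fgfr3 and 3 to 19 for Fgfr4. Flrt3, a membrane protein that binds FGF receptors, had a log2 fold change of 1.0028 that did not pass the test (adjusted p = 0.177, edgeR), with levels of 0.488 in sham and 0.985 in ONC, the widest difference on the higher side in its list. Etv1, a target gene of FGF signalling, had a log2 fold change of -0.46 (adjusted p = 0.126, edgeR).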
